A study of Homo sapiens with 6 samples.

Results

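The subject is a set of 38 autophagy and lysosome genes, given by symbol. The rule uses no measured value. All 38 were found among the 60675 rows of the deposited count table, and all 38 passed the filter on low counts, which left 16503 genes for testing. They were split by role into 10 genes of initiation and phagophore growth, 7 conjugation enzymes, 4 ATG8 proteins, 3 cargo receptors, 2 transcription factors, 4 lysosomal membrane proteins and 8 proteins of the lysosomal lumen, most of them hydrolases. RNA was sequenced from HCT116, an established human colorectal carcinoma line, in 3 groups of 2 libraries. The untreated group is wild type by its labels. The second group received SP2509, an inhibitor of the histone demethylase KDM1A (LSD1), at 3 uM for 48 h. The third group is a transient siRNA knockdown of PIR (pirin, an iron-binding nuclear protein), called siPIR here, and its labels also give 48 h. The treatment label of the siPIR libraries also names SP2509, so whether those cells received the compound is not settled by the labels. No library analysed here is labelled as a non-targeting siRNA control, and the labels do not say whether untreated cells received solvent. Nothing in the labels says that the 2 libraries of a group came from separate cultures, so the p-values cover only the spread between these libraries, and that spread may be technical.

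Macroautophagy encloses cytoplasm in a double membrane, the phagophore, which closes into an autophagosome and fuses with the lysosome. The ULK kinase complex and a BECN1 lipid kinase complex start the process, a pair of ubiquitin-like conjugation systems attaches ATG8 proteins to the membrane, and cargo receptors bind both ATG8 proteins and ubiquitinated cargo. Lysosomal hydrolases then degrade the contents, and the transcription factors TFEB and TFE3 are known regulators of many genes of both organelles.

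The library totals lay between 22622441 and 28816590 counts, and a floor of 3 counts corresponded to between 0.104 and 0.133 CPM (counts scaled to a common library total) before TMM scaling. PIR counts were 519 and 462 in untreated cells, against 37 and 39 after knockdown and 377 and 305 with the compound. Its log2 fold change in siPIR was -2.87 (edgeR adjusted p = 3.39e-09). After TMM scaling PIR did not pass with SP2509 (-0.12, edgeR adjusted p = 0.406). The summed unscaled CPM of 6 epithelial markers was 4551 and 4512 without treatment, 4501 and 4458 with SP2509, and 1048 and 1125 after knockdown. This sum does not show a shared direction. Among the 5 epithelial markers tested by edgeR in siPIR against untreated, 2 rose and 3 fell. The sum of 6 leukocyte markers never passed 1.59 CPM, with 2 of the 6 at 0 in every library, and 5 endothelial markers never passed 2.29. A sum over 5 fibroblast markers stood at 28.1 and 32.2 without treatment, 21.4 and 19.8 with SP2509, and 1.29 and 1.72 after knockdown. The count-weighted GC content was between 48.3% and 48.7% in the untreated and SP2509 libraries but 42.3% and 42.8% in the siPIR libraries. A correction for GC content and transcript length (the GC-length offset) was fitted beside each comparison. Once this correction was applied, the 5 epithelial markers in siPIR split into 2 rises, 2 falls and 1 gene not past the threshold. Their median log2 fold change moved from -2.55 as fitted to -0.02. The part of the marker differences in the results was not tested.

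With SP2509 all 3 cargo receptors and 5 of the 7 conjugation enzymes were higher than in untreated cells, while calls among genes of initiation and of the lysosome varied with the scaling. Of the 38 genes, 21 rose and 6 fell at an adjusted p of 0.05 by edgeR's quasi-likelihood test. Across all genes tested, 33.5% rose and 35.1% fell. Over the 38 genes the median log2 fold change came to 0.44, and over all tested genes to -0.04. With the GC-length offset 26 rose and 5 fell, against 38.2% and 34.5% of all genes, and the medians were 0.50 and 0.03. The summed level of the 38 genes was 2159 and 2123 TMM-scaled CPM in untreated and 3546 and 3701 in SP2509. All levels below are TMM-scaled CPM unless stated, and all changes are relative to the scaling. Without any scaling beyond library totals, the all-gene median became -0.43 in place of -0.04 and that of the 38 genes 0.05 in place of 0.44, with 16 genes higher and 14 lower. Upper quartile scaling gave medians of -0.27 and 0.21, with 17 higher and 10 lower. Of all called genes, 48.8% were higher under TMM, 36.2% under upper quartile scaling and 28.3% under totals alone. Of the 16503 genes tested, upper quartile scaling called 4202 higher and 7394 lower, and totals alone 3363 and 8527. Mitochondrial ribosomal RNA made up 6.33% and 6.93% of counts in the SP2509 libraries, 1.63% and 1.60% in untreated and 1.14% and 1.36% in siPIR, and its part in the changes was not tested. In bulk RNA a change in the number of cells of a kind and a change in RNA per cell cannot be told apart.

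**Figure D1:**
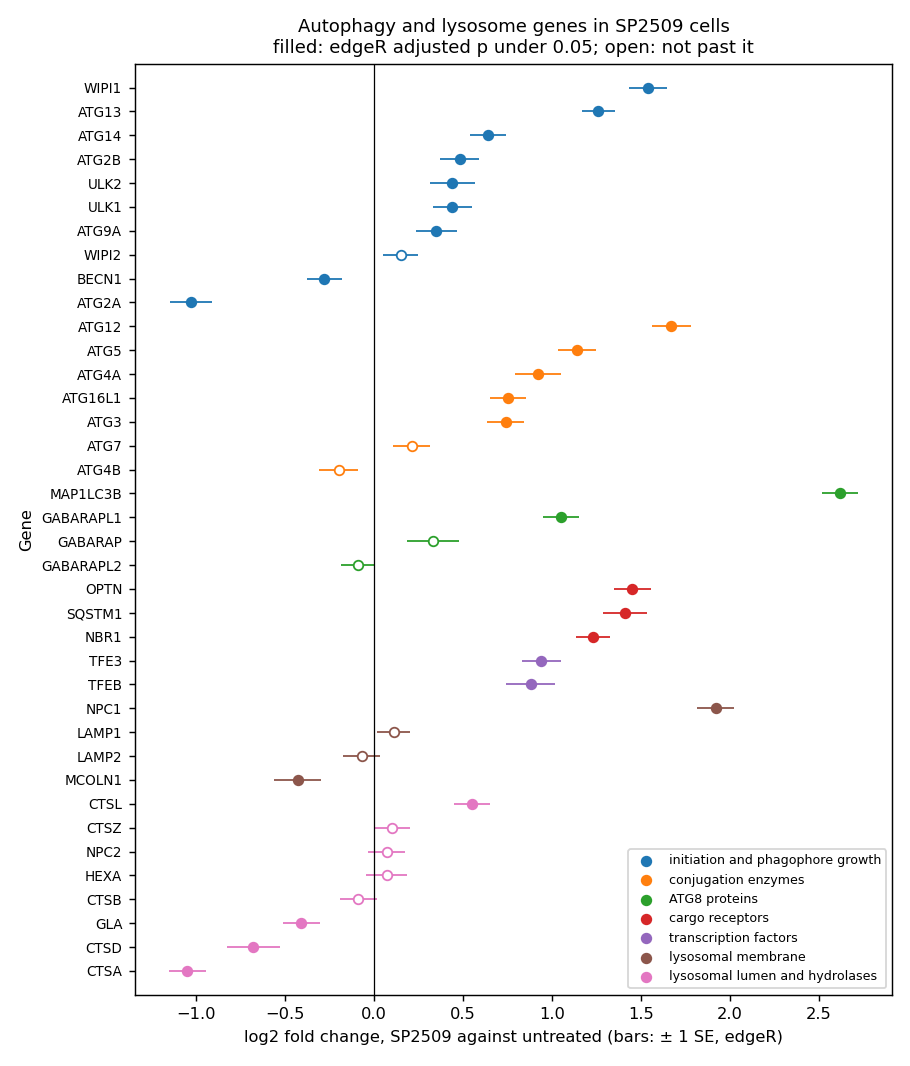
Log2 fold change in SP2509 against untreated for each of the 38 genes, grouped by role, with 1 standard error as the bar; colours mark the roles, filled points passed an adjusted p of 0.05 and open points did not. MAP1LC3B has the highest value, 2.62, and CTSA the lowest, -1.05, while all 3 cargo receptors lie above 1.

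All 3 cargo receptors rose, by between 1.23 and 1.45 on the log2 scale (median 1.41). SQSTM1 (p62), the receptor that gathers ubiquitinated proteins into autophagosomes, was at 212 and 208 CPM in untreated and 532 and 586 in SP2509. This is 2.67-fold higher (log2 fold change 1.41, SE 0.122, adjusted p = 5.78e-07), and the groups did not overlap. NBR1, a related receptor for ubiquitinated cargo, was at 94.7 and 95.0 CPM in untreated and 219 and 226 in SP2509. Its rise was 1.23 (SE 0.0947, adjusted p = 2.23e-07). OPTN (optineurin), which acts in the autophagy of bacteria and damaged mitochondria, rose from 31.8 and 30.4 CPM to 87.0 and 83.3. Its log2 fold change was 1.45 (SE 0.104, adjusted p = 1.19e-07). All 3 calls held under each of the 17 alternatives tried.

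The 4 ATG8 genes divided, with 2 higher and 2 not past the threshold. MAP1LC3B encodes LC3B, the ATG8 protein most used as a marker of autophagosomes. It had 74.6 and 72.1 CPM in untreated and 433 and 470 in SP2509, a 6.15-fold rise (log2 fold change 2.62, SE 0.101, adjusted p = 1.01e-09). That was the largest change of the 38 genes in this comparison. GABARAPL1, of the GABARAP branch of the family, rose from 44.4 and 45.6 CPM to 92.4 and 93.4 (1.05, SE 0.0993, adjusted p = 1.29e-06). GABARAPL2 was at 43.3 and 42.8 CPM in untreated and 39.4 and 41.5 in SP2509 (-0.09, adjusted p = 0.401). The groups did not overlap, but the difference did not pass the test. GABARAP shares 691 exonic bases on the same strand with AC120057.2, a gene with a mean count of 0. How reads in shared bases were counted is not given by the sources used here, and their part in its level was not tested. GABARAP itself was low, at 7.05 and 6.20 CPM in untreated and 7.54 and 9.16 in SP2509 (0.33, adjusted p = 0.0617). It passed without SP2509 replicate 1 (0.48, adjusted p = 0.0373) and without either siPIR library (0.34, adjusted p = 0.0266 and 0.0269), and its value was -0.06 with totals alone.

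Among the genes of initiation and phagophore growth 7 rose, 2 fell and 1 did not pass, with a median of 0.44. Under both upper quartile scaling and totals alone 3 rose and 2 fell, with medians of 0.21 and 0.05. WIPI1, which binds phosphatidylinositol 3-phosphate on the growing membrane, had 14.4 and 15.5 CPM in untreated and 43.1 and 44.0 in SP2509. The change was 2.91-fold (log2 1.54, SE 0.109, adjusted p = 1.14e-07). ATG13, the scaffold of the ULK kinase complex, rose from 44.8 and 44.3 CPM to 104 and 109 (1.26, SE 0.0927, adjusted p = 1.48e-07). ATG14, the subunit that directs the BECN1 complex to autophagy, rose from 25.4 and 26.2 CPM to 41.5 and 39.0 (0.64, SE 0.103, adjusted p = 0.000112). In these genes every SP2509 library lay above every untreated one. ATG2A, which carries lipid to the growing membrane, went the other way, from 26.7 and 26.8 CPM to 12.8 and 13.4. Its level fell to 49.0% of untreated (-1.03, SE 0.118, adjusted p = 6.91e-06). Its paralog ATG2B rose from 16.3 and 15.8 CPM to 24.0 and 20.8 (0.48, SE 0.110, adjusted p = 0.00180). BECN1 (beclin 1), the scaffold of the lipid kinase complex, was lower, at 66.1 and 65.5 CPM in untreated and 55.2 and 53.3 in SP2509 (-0.28, SE 0.0975, adjusted p = 0.0228). This small difference did not pass when any 1 of the 4 libraries compared was left out, with adjusted p between 0.102 and 0.180.

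The remaining initiation genes changed less. The kinases ULK1 and ULK2 were both higher by 0.44, with adjusted p of 0.00282 and 0.00752. ULK1 rose from 31.9 ± 2.16 CPM (SD, n = 2) to 43.4 ± 2.38 without overlap but did not pass without untreated replicate 2 (0.37, adjusted p = 0.0632). ULK2 was at 13.2 and 12.3 CPM in untreated and 16.9 and 17.8 in SP2509. It did not pass without SP2509 replicate 2 (0.42, adjusted p = 0.0523) or without untreated replicate 2 (0.39, adjusted p = 0.0808). ATG9A, a membrane scramblase of the seed vesicles, was at 63.1 and 57.6 CPM in untreated and 71.4 and 82.6 in SP2509 (0.35, adjusted p = 0.0140). It did not pass without SP2509 replicate 2 (0.26, adjusted p = 0.151) or untreated replicate 2 (0.28, adjusted p = 0.155). ULK1, ULK2, ATG2B and ATG9A also did not pass under upper quartile scaling or totals alone, and ATG9A had a value of -0.04 under the latter. WIPI2, which recruits ATG16L1, was at 74.1 and 73.4 CPM in untreated and 84.4 and 79.1 in SP2509 and did not pass (0.15, adjusted p = 0.201). It passed without siPIR replicate 1 or 2, with adjusted p of 0.0405 and 0.0409, and had negative values of -0.09 and -0.24 under upper quartile scaling and totals alone.

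Of the 7 conjugation enzymes 5 rose and 2 did not pass, with a median of 0.75. ATG12, the ubiquitin-like protein joined to ATG5, had 88.1 and 90.0 CPM in untreated and 266 and 300 in SP2509. The 3.18-fold difference (log2 1.67, SE 0.110, adjusted p = 6.44e-08) was far larger than the spread within either group. ATG12 shares 378 exonic bases with AP3S1 on the opposite strand, and AP3S1 was higher by 1.34. Because the sources used here do not give the strand setting of the counting, reads of the pair within those shared bases cannot be told apart. The longest ATG12 transcript has 4333 bases, and the part of such reads in its rise was not tested. BECN1, ATG2B, ATG3, ATG4B and ATG7 also share exonic bases with an opposite-strand gene (PSME3, GSKIP, SLC35A5, THAP4 and VGLL4) whose mean count was at least 80.3% of their own. ATG5 itself rose from 37.5 and 38.5 CPM to 83.6 and 84.0 (1.14, SE 0.105, adjusted p = 1.01e-06). ATG16L1, which brings the ATG12-ATG5 conjugate to the membrane, rose from 36.9 and 36.5 CPM to 61.0 and 62.5 (0.75, SE 0.101, adjusted p = 2.58e-05). ATG3, the E2-like enzyme that passes ATG8 proteins to lipid, rose from 31.9 in both untreated libraries to 53.9 and 52.7 CPM (0.74, adjusted p = 3.58e-05). ATG4A, a protease that trims ATG8 precursors, rose from 9.07 and 11.1 CPM to 20.3 and 17.7 (0.92, adjusted p = 3.55e-05). Its paralog ATG4B was at 47.1 and 50.8 CPM in untreated and 42.5 in both SP2509 libraries (-0.20, adjusted p = 0.117). ATG7, the E1-like enzyme shared by both systems, was at 17.0 and 15.6 CPM in untreated and 18.6 and 19.1 in SP2509 (0.21, adjusted p = 0.102). Both genes passed when either siPIR library was left out of the shared fit. The adjusted p-values were then 0.0251 and 0.0250 for ATG4B and 0.0424 and 0.0427 for ATG7.

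Both transcription factor genes rose. TFEB was low, at 5.92 and 5.85 CPM in untreated and 10.1 and 11.6 in SP2509 (0.88, SE 0.138, adjusted p = 9.61e-05). TFE3 was at 24.3 and 24.9 CPM in untreated and 46.2 and 48.3 in SP2509 (0.94, SE 0.108, adjusted p = 6.84e-06). These proteins are known to be controlled largely by phosphorylation and entry into the nucleus, which RNA levels do not measure.

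The 4 lysosomal membrane genes split into 1 higher, 1 lower and 2 not past the threshold. NPC1, which exports cholesterol from the lysosome, rose from 46.6 and 42.8 CPM to 163 and 174. This was a 3.78-fold change (log2 1.92, SE 0.102, adjusted p = 1.17e-08), the second largest of the 38 genes. MCOLN1, a lysosomal calcium channel, was lower, at 10.7 and 10.4 CPM in untreated and 7.11 and 8.57 in SP2509 (-0.43, SE 0.131, adjusted p = 0.0110). MCOLN1 did not pass with the GC-length offset (-0.17, adjusted p = 0.231) or by DESeq2 (adjusted p = 0.101). It also did not pass without SP2509 replicate 1 (-0.29, adjusted p = 0.147), untreated replicate 1 (-0.40, adjusted p = 0.0920) or untreated replicate 2 (-0.45, adjusted p = 0.0541). LAMP1 and LAMP2 are the most abundant glycoproteins of the lysosomal membrane. LAMP1 was at 200 and 197 CPM in untreated and 218 and 211 in SP2509 (0.11, adjusted p = 0.297). It passed as higher with the GC-length offset (0.16, adjusted p = 0.0394) and as lower under totals alone (-0.28, adjusted p = 0.0170). LAMP2 was at 74.3 and 65.6 CPM in untreated and 69.0 and 64.0 in SP2509 (-0.07, adjusted p = 0.546), and here the groups overlapped. LAMP2 passed as lower under upper quartile scaling (-0.31, adjusted p = 0.0135) and totals alone (-0.46, adjusted p = 0.000924).

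Of the 8 genes of the lysosomal lumen 1 rose, 3 fell and 4 did not pass, and the median was -0.01. Upper quartile scaling gave 1 higher and 4 lower (median -0.25), and totals alone gave 7 lower and no rise (median -0.40). CTSA, a carboxypeptidase that also protects other lysosomal enzymes, fell from 63.8 and 62.4 CPM to 28.8 and 32.4. This is 48.4% of the untreated level (-1.05, SE 0.102, adjusted p = 1.68e-06). CTSD, the main aspartic protease of lysosomes, was lower, at 74.2 and 71.5 CPM in untreated and 45.8 and 45.1 in SP2509 (-0.68, SE 0.150, adjusted p = 0.00140). The 2 libraries of each group lay close together, but by DESeq2 the change in CTSD did not pass (-0.66, adjusted p = 0.377). GLA, the galactosidase deficient in Fabry disease, fell from 18.1 and 18.6 CPM to 13.7 and 14.0 (-0.41, SE 0.105, adjusted p = 0.00399). CTSL, a cysteine protease, was the member of this group that rose, from 39.5 and 45.2 CPM to 61.8 and 62.5 (0.55, SE 0.101, adjusted p = 0.000319). CTSL did not pass under totals alone (0.16, adjusted p = 0.190). The cysteine proteases CTSB and CTSZ, the hexosaminidase subunit HEXA and the cholesterol carrier NPC2 had values between -0.09 and 0.10, with adjusted p between 0.401 and 0.583. Summed over the 8 genes, the level was 645 and 635 CPM in untreated and 581 and 591 in SP2509, against 338 and 333 rising to 838 and 895 for the 3 cargo receptors.

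**Figure D2:**
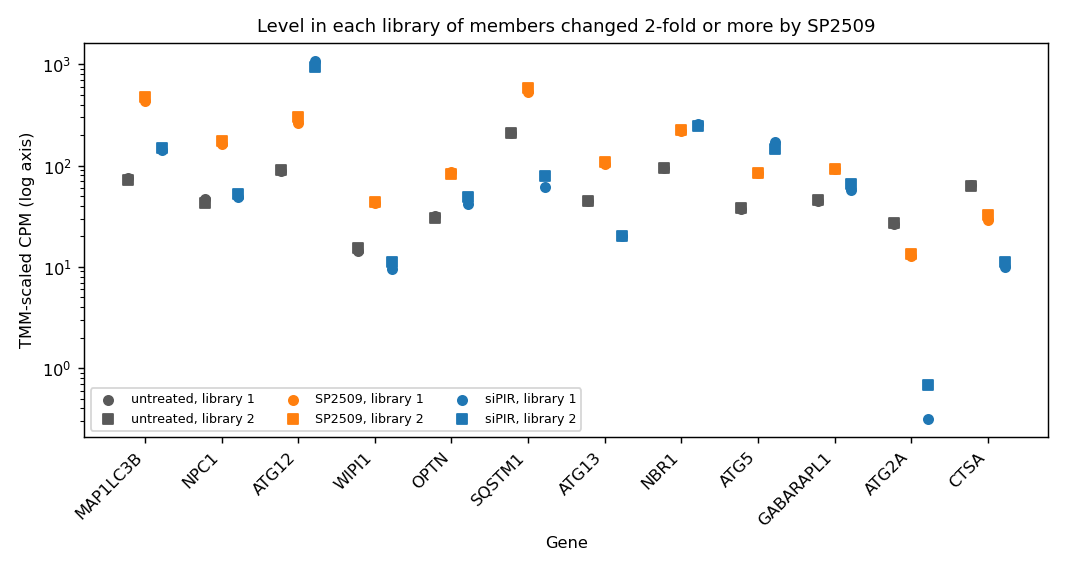
TMM-scaled CPM on a log axis in each of the 6 libraries for the 12 genes that changed at least 2-fold with SP2509, with a circle and a square for the libraries of a group. SQSTM1 and MAP1LC3B stand highest in SP2509, at 532 and 586 and at 433 and 470, while ATG12 stands highest in siPIR, at 1087 and 945, and ATG2A lowest, at 0.313 and 0.677.

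TFEB and TFE3 are known to bind the CLEAR element, whose core is TCACGTGA, an extended form of the E-box CACGTG. Promoters from RefSeq (GRCh38.p14, 250 bases before to 50 after a start) were found for 35 of the 38 genes. Only the first listed promoter of each gene was searched, so other starts of a gene were not covered. For 29 of the 35, bases after the start were found in an annotated transcript of the gene. The CLEAR core was present in 4 of the 35 (11.4%) and in 283 of all 27305 promoters (1.04%), both strands searched. The E-box, which the CLEAR core contains, was present in 6 of 35 (17.1%), the same 4 plus ATG14 and CTSD, and in 7.43% of all promoters. The 4 promoters with the core are shown because 3 of the 4 genes belong to the lysosome and their changes with SP2509 differ in direction. Each is written from its own strand, with CLEAR cores and other E-boxes in capitals. They are LAMP1 at chr13:113297039-113297244 on the plus strand, MCOLN1 at chr19:7522524-7522623 on the plus strand, CTSA at chr20:45891235-45891334 on the plus strand and ATG3 at chr3:112561951-112562022 on the minus strand.
LAMP1: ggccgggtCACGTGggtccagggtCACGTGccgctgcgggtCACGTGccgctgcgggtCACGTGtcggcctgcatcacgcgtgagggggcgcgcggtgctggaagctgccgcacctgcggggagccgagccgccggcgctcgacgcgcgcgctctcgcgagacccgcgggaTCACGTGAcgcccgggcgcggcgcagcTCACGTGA
MCOLN1: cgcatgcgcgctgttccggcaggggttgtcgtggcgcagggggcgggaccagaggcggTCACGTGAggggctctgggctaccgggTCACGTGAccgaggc
CTSA: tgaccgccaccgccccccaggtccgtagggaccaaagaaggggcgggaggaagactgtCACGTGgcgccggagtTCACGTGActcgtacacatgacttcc
ATG3: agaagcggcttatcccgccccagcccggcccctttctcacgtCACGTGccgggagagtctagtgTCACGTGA
The LAMP1 and MCOLN1 stretches each hold 2 CLEAR cores, and LAMP1 holds 4 further E-boxes upstream. Of the 4 genes only ATG3 rose with SP2509 as fitted (0.74), MCOLN1 and CTSA were lower (-0.43 and -1.05), and LAMP1 did not pass (0.11). With the GC-length offset MCOLN1 did not pass (-0.17, adjusted p = 0.231) and LAMP1 passed as higher (0.16, adjusted p = 0.0394). The core of the amino acid response element, TGATGNAAT, was found in 0 of 35 promoters of the set and in 1.02% of all promoters. That says only that these letters are not in this window. The genes with the largest rises, MAP1LC3B and NPC1, had none of the 3 motifs in the window searched.

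Compared per kilobase of the longest annotated transcript (GENCODE 29), the untreated cells had CTSB (75.2 ± 2.99 CPM per kb, SD, n = 2) and SQSTM1 (70.2 ± 0.953) as the highest of the 38 genes. CTSZ followed at 52.0 ± 0.770 and NPC2 at 43.1 ± 2.09. CTSA (20.7 ± 0.328), ATG12 (20.6 ± 0.301) and NBR1 (20.4 ± 0.0520) lay close together. The lowest levels were those of ATG2B (1.17 ± 0.0232) and HEXA (1.74 ± 0.105). In SP2509 the order at the top changed to SQSTM1 (187 ± 12.7), MAP1LC3B (146 ± 8.49), CTSB (70.4 ± 2.23) and ATG12 (65.4 ± 5.57). Genes expressed mainly from a shorter transcript are understated on this scale. HEXA shares 617 exonic bases on the same strand with AC009690.1, and CTSD shares 1304 with AC068580.4. Whether reads in these bases were lost from the counts was not tested.

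The same contrast was followed in 6 wider lists of autophagy and lysosome genes outside the 38. Each list is to be read beside all genes tested, of which 33.5% rose and 35.1% fell. Among 25 tested other autophagy genes 11 rose and 7 fell, with a median of 0.18. NRBF2, a regulator of the lipid kinase complex, rose by 1.23, RUBCN (rubicon) by 1.24 and ATG101, a partner of ATG13, by 1.45. TECPR2 fell by 0.97, STX17, the syntaxin of autophagosome fusion, by 0.86 and PIK3R4 by 0.73. The list of other autophagy receptors also holds the kinases TBK1 and PINK1. Of its 10 tested genes 5 rose and 5 did not pass (median 0.28), led by TAX1BP1 at 1.54, TOLLIP at 0.99 and TBK1 at 0.82. TAX1BP1 binds ubiquitinated cargo as SQSTM1 and NBR1 do. The median of the other autophagy genes was -0.05 under upper quartile scaling and -0.21 under totals alone, and that of the other receptors 0.05 and -0.11, with 3 and 5 of the other receptors then lower.

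Of 31 other lysosomal hydrolases and lumen proteins tested, 6 rose and 19 fell, with a median of -0.56 against -0.04 for all genes. For this list and those below, the shares over all genes were again 33.5% higher and 35.1% lower. Under totals alone 2 of the 31 rose and 23 fell. ACP2, an acid phosphatase, fell by 1.73, SGSH by 1.40 and LIPA, the acid lipase, by 1.02. SMPD1, the acid sphingomyelinase, rose by 1.62, PSAP by 0.78 and IDS by 0.62. Among 14 other lysosomal membrane genes 3 rose and 7 fell (median -0.23), and under totals alone 1 rose and 8 fell. LAMP3 rose by 2.27, LAPTM4A by 0.56 and SLC17A5 by 0.34, while TPCN2 fell by 1.58, CTNS by 1.24 and LAPTM4B by 0.57. The 16 genes of the V-ATPase, the proton pump that acidifies lysosomes, had 4 higher and 5 lower (median 0.05), with ATP6V0B at 0.65 and ATP6V1C1 at -1.01. Upper quartile scaling gave 3 higher and 7 lower (median -0.19), and totals alone 1 higher and 10 lower (median -0.34). Over all 16503 genes the same scalings called 4202 higher and 7394 lower, and 3363 higher and 8527 lower. Of 24 genes of mTORC1 and its lysosomal regulators 10 rose and 8 fell, with a median of 0.15. Upper quartile scaling gave 7 higher and 9 lower (median -0.09), and totals alone 5 higher and 12 lower (median -0.24). SESN2 and SESN3 encode sestrins, stress-induced regulators of mTORC1. SESN2 rose by 3.37 and SESN3 fell by 2.09, and the regulators RHEB and MITF rose by 1.06 and 1.44 while DEPTOR and LAMTOR1 fell by 1.68 and 0.97.

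**Figure D3:**
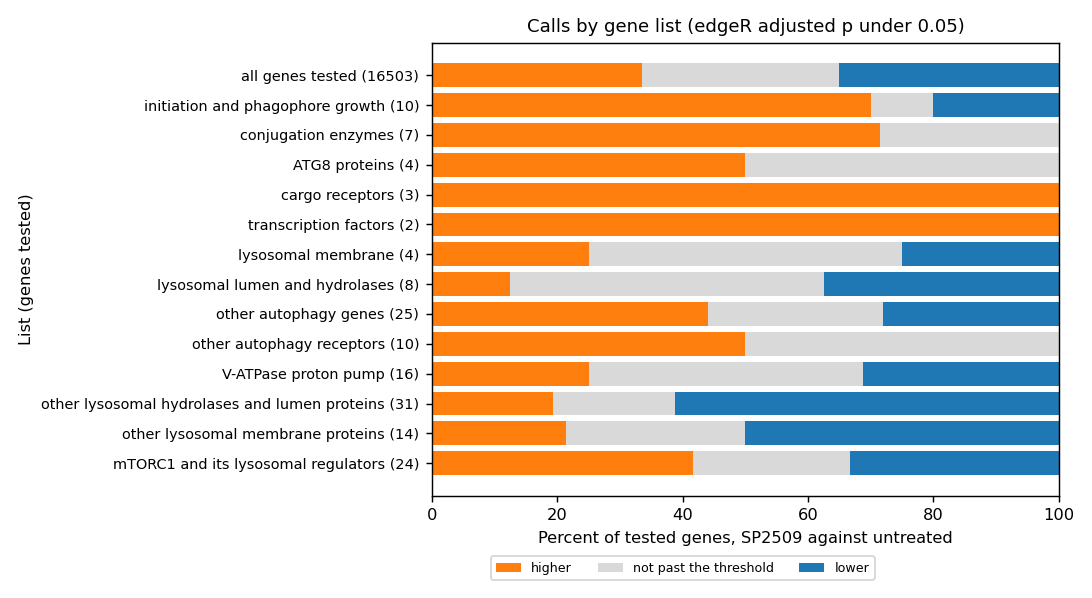
Share of tested genes called higher or lower in SP2509 against untreated, for the 7 roles of the 38 genes, the 6 wider lists and all tested genes. The 3 cargo receptors are all higher, whereas 19 of the 31 other hydrolases and lumen proteins are lower, against 33.5% higher and 35.1% lower over all genes.

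In siPIR against untreated most of the 38 genes differed in 1 direction or the other, and direction followed GC content. By edgeR 14 rose and 22 fell, with 2 not past the threshold, against 39.3% and 46.9% of all genes. The median was -0.41 over the 38 genes and -0.28 over all genes. Spearman's rho between the log2 fold change and the GC content of the longest transcript was -0.901 across the 38 genes and -0.883 across 16345 genes, where genes share the same libraries and are not independent replicates. In SP2509 against untreated the same correlations were -0.332 and -0.0887. Of 11 members under 45% GC 10 rose and 1 fell, with a median of 1.36. Of 16 members between 45% and 55% GC 4 rose and 10 fell, with a median of -0.38. All 11 members at 55% or more fell, with a median of -2.84. The share of all tested genes called in each GC class was not counted. Because rho over all genes was close to that of the 38, these counts are not a trait of the 38. With the GC-length offset the medians of these classes were 0.47, 0.05 and 0.23, and 19 of the 38 genes rose and 11 fell, against 32.7% and 32.4% of all genes. The overall medians were then 0.16 and -0.04. Since the offset comes from these libraries themselves, it takes out any change that follows GC content or length, whatever its source.

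**Figure D4:**
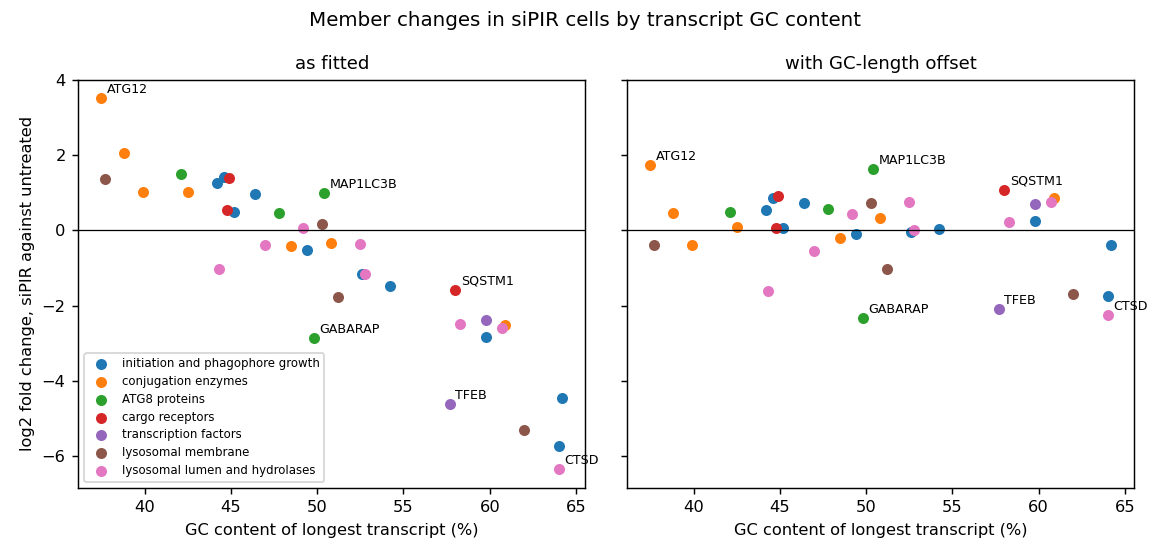
Log2 fold change in siPIR against untreated for the 38 genes against the GC content of the longest transcript in percent, as fitted and with the GC-length offset. As fitted, the values run from 3.51 for ATG12 to -6.35 for CTSD and all 11 genes at 55% or more lie below 0; with the offset the median at 55% or more is 0.23.

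The offset kept the direction of 18 calls in siPIR, 9 higher and 9 lower. The share of all tested genes called alike in both fits was not counted, so these counts are not a trait of the 38. Of the 9 higher calls, that of ATG12 was the largest, from 88.1 and 90.0 CPM to 1087 and 945 (log2 3.51, SE 0.118, adjusted p = 2.79e-11, and 1.73 with the offset). AP3S1, which overlaps it on the opposite strand, was higher by 2.87. ATG5 rose from 37.5 and 38.5 CPM to 171 and 146 (2.06, adjusted p = 7.35e-10, and 0.47 with the offset). MAP1LC3B rose from 74.6 and 72.1 CPM to 142 and 148 (0.98, adjusted p = 5.48e-07). Its value with the offset was larger, 1.62. ATG14 was at 73.1 and 65.1 CPM in siPIR (1.42, adjusted p = 1.85e-08), and 0.86 with the offset. GABARAPL2, which did not pass with SP2509, rose from 43.3 and 42.8 CPM to 123 and 121 (1.51, adjusted p = 4.36e-09, and 0.49 with the offset). NBR1 rose to 258 and 244 CPM (1.40, adjusted p = 9.84e-09, and 0.91 with the offset). The other higher calls in both fits were those of ULK2, ATG2B and GABARAPL1. In siPIR these stood at 24.8 ± 3.93, 38.9 ± 1.16 and 62.0 ± 5.65 CPM (SD, n = 2), none overlapping untreated, with values as fitted of 0.96, 1.27 and 0.46.

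The 9 genes lower in both fits were ATG2A, ATG16L1, GABARAP, TFEB, LAMP1, MCOLN1, CTSD, HEXA and NPC2. Of these, 5 come from the 4 lysosomal membrane and 8 lumen genes of the set. LAMP1 fell from 200 and 197 CPM to 57.7 and 57.8, 29.1% of untreated (-1.78, SE 0.0962, adjusted p = 1.05e-09, and -1.03 with the offset). NPC2, which hands cholesterol to NPC1, fell from 59.8 and 64.1 CPM to 28.9 and 31.7 (-1.03, adjusted p = 8.94e-07). At 44.3% GC it was the member under 45% GC that fell, and its value with the offset was -1.60. CTSD fell from 74.2 and 71.5 CPM to 0.313 and 1.46, which are 6 and 28 counts (-6.35, adjusted p = 8.26e-11, and -2.26 with the offset). The size rests on single libraries, being -5.62 without siPIR replicate 1 and -7.81 without siPIR replicate 2. ATG2A was at 6 and 13 counts in siPIR (-5.74, adjusted p = 4.73e-11, and -1.75 with the offset), and its value as fitted was -6.37 without siPIR replicate 2. TFEB had 3 and 6 counts and MCOLN1 had 5 in each siPIR library, at or close to the floor of 3 counts, with values of -4.62 and -5.31 as fitted and -2.09 and -1.69 with the offset. GABARAP had 15 and 20 counts (-2.86, adjusted p = 5.65e-08, and -2.34 with the offset), and the part of its overlap with AC120057.2 was not tested. ATG16L1 (25.3 and 29.5 CPM in siPIR) and HEXA (8.78 and 9.53 CPM) changed least, with -0.42 and -0.39 as fitted, and HEXA did not pass without untreated replicate 1 (adjusted p = 0.0856) or with an unexplained number of the sample descriptions as a block (adjusted p = 0.0549). With the offset and a replicate block ATG16L1 did not pass (-0.20, adjusted p = 0.0556).

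In 10 genes the offset turned the call around. SQSTM1 was at 61.0 and 79.6 CPM in siPIR, 33.5% of untreated, with -1.58 as fitted (adjusted p = 5.25e-08) and 1.07 with the offset (adjusted p = 5.35e-11). CTSA, at 9.93 and 11.1 CPM in siPIR, went from -2.59 as fitted to 0.75 with the offset. ATG4B, at 7.42 and 9.63 CPM, went from -2.52 to 0.85, and TFE3, at 4.02 and 5.31 CPM, from -2.39 to 0.70. All of these lie far below their untreated levels as counted. ATG9A (7.52 and 9.37 CPM in siPIR, -2.84 and 0.25), CTSZ (12.4 and 15.4 CPM, -2.48 and 0.23), ATG7 (13.2 and 12.8 CPM, -0.33 and 0.33) and CTSL (31.9 and 33.6 CPM, -0.37 and 0.75) also turned from lower to higher, although ATG9A did not pass with the offset and a replicate block (0.25, adjusted p = 0.0508). ATG3, at 69.8 and 59.9 CPM in siPIR, turned from 1.02 to -0.38, and LAMP2, at 188 and 173 CPM, from 1.36 to -0.38. For these 10 genes the direction depended on the offset. The calls on ATG7 and CTSL also did not pass without untreated replicate 1 (-0.28, adjusted p = 0.125) and untreated replicate 2 (adjusted p = 0.0727), respectively. ULK1, ATG13, WIPI1, WIPI2 and CTSB were lower, and BECN1, ATG4A and OPTN higher, as fitted and not with the offset. OPTN was at 41.8 and 48.4 CPM in siPIR (0.54, adjusted p = 0.000337) and at 0.05 with the offset. ULK1, for example, fell from 33.4 and 30.4 CPM to 1.20 and 1.72 (-4.45, adjusted p = 6.44e-11), but was at -0.38 with the offset (adjusted p = 0.0787). NPC1 and GLA did not pass as fitted (0.18 and 0.05) and were higher with the offset (0.73 and 0.43). NPC1 passed as fitted without siPIR replicate 1 (adjusted p = 0.0147).

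siPIR was then set directly against SP2509, which tests whether the perturbed groups differ and does not use the untreated libraries as a reference. Of the 38 genes 10 were higher and 26 lower in siPIR, against 38.8% and 45.5% of all genes, with medians of -1.14 and -0.23. With the offset 7 were higher and 25 lower, against 32.6% and 37.1% of all genes, with medians of -0.54 and -0.07. In both fits 20 genes were lower in siPIR, and how many of all tested genes were lower in both was not counted. MAP1LC3B was at 433 and 470 CPM in SP2509 and 142 and 148 in siPIR (-1.64, SE 0.0981, adjusted p = 2.91e-09, and -1.09 with the offset). NPC1 was at 163 and 174 CPM in SP2509 and 48.5 and 52.9 in siPIR (-1.74, adjusted p = 2.64e-09, and -1.23 with the offset). WIPI1 was at 43.1 and 44.0 CPM in SP2509 and 9.46 and 11.2 in siPIR (-2.07, adjusted p = 2.05e-09, and -1.68 with the offset). SQSTM1 differed by -2.99 and OPTN by -0.92, and these values were -0.55 and -1.42 with the offset. For both transcription factors siPIR was lower, TFEB at -5.50 and TFE3 at -3.34 as fitted and -3.17 and -0.46 with the offset.

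The 5 genes higher in siPIR than in SP2509 by both fits were ULK2, BECN1, ATG14, GABARAPL2 and GLA. GABARAPL2 differed most, at 39.4 and 41.5 CPM in SP2509 and 123 and 121 in siPIR (1.60, SE 0.0953, adjusted p = 2.85e-09, and 0.58 with the offset). BECN1 was at 55.2 and 53.3 CPM in SP2509 and 98.3 and 88.1 in siPIR (0.78, adjusted p = 6.09e-06, and 0.34 with the offset). ATG12 was higher in siPIR as fitted (1.84, adjusted p = 2.84e-09) but not with the offset (0.06, adjusted p = 0.552). The receptor NBR1 was not past the threshold as fitted (0.17, adjusted p = 0.101), passed without siPIR replicate 2 (0.23, adjusted p = 0.0103), and was lower with the offset (-0.31, adjusted p = 0.000413). ATG3, higher as fitted (0.28, adjusted p = 0.0203), did not pass when any single library other than siPIR replicate 2 was left out (adjusted p between 0.0649 and 0.122), and was -1.13 with the offset. Leaving out siPIR replicate 2 moved ATG2A from -4.71 to -5.35 and CTSD from -5.67 to -7.15, and without siPIR replicate 1 CTSD was -4.96. With the offset the values were smaller, -0.97 for ATG2A and -1.87 for CTSD.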

How the data were processed

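Per the submitters' processing notes the authors used FastQC 0.11.8, Trimmomatic 0.32, HISAT2, featureCounts from Subread 1.6.2 and edgeR 3.26.4 with GRCh38. The sources used here give neither the strand setting nor the rule behind fractional values. The authors deposited 1 table of estimated counts per gene, in which between 9.32% and 12.0% of values per library are not whole. These were rounded. Near-identical copies and overlapping genes are uncertain, although the ATG8 and cathepsin pseudogenes examined had at most 1 count and MAP1LC3B2 had 20 to 60.

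Genes were filtered by filterByExpr, scaled by TMM and fitted with edgeR 4.0.16 (R 4.3.3, robust quasi-likelihood) over 6 libraries in 3 groups. P-values were adjusted by Benjamini and Hochberg over 16503 genes at 0.05. The SE is the log2 fold change over the root of F. The GC-length offset used natural splines (5 degrees of freedom) of GC content and log2 length from GENCODE 29, in which 56996 identifiers matched and 158 tested genes had no value. The fit was tried on simulated data in which few genes changed, equally up and down, without a GC trend. That trial does not cover changes as widespread as those here, or the offset. Groups follow sample titles.

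The members and lists were chosen with earlier results of these data known. All 38 members are accounted for. Values in every library are given for members with an absolute log2 fold change of at least 1 in SP2509, and for up to 3 members per role and direction with the smallest adjusted p in each comparison. From each wider list up to 3 genes per direction are named by adjusted p. Alternatives were other scalings, DESeq2 1.42.0, other filters, blocks, the offset and leaving out each library.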

Additional observations from a re-analysis of the deposited data

How the results depend on the processing

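Over 17 alternatives, 16 of the 21 rises and 3 of the 6 falls with SP2509 (ATG2A, CTSA and GLA) kept direction and call in each. The 6 falls became 10 under upper quartile scaling, 14 under totals alone and 3 by DESeq2. The 22 falls in siPIR became 11 with the GC-length offset and 10 with the replicate block with the offset. Leaving out 1 library gave 18 to 24 rises and 4 to 7 falls with SP2509, 14 to 15 and 20 to 22 in siPIR, and 9 to 11 higher and 26 lower in siPIR against SP2509. With 1 library left in a group, its spread is assumed to be like that of the other groups. With 2 libraries per group and siPIR counts as low as 3, sizes of the lowest genes are poorly fixed.

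Replicate numbers are shared between groups, but the labels do not say that they mark a batch, and same-numbered libraries did not deviate together (r of -0.0244, -0.0385 and 0.0815). A replicate block gave 21 and 6 calls with SP2509, 14 and 22 in siPIR, and 10 and 26 in siPIR against SP2509, as without it. The sample descriptions carry an unexplained number from 10 to 12 that groups also share, and in untreated and SP2509 it pairs libraries as the replicate number does. As a block, this description number gave 22 and 7, 14 and 21, and 9 and 26 calls. ATG4B (-0.20, adjusted p = 0.0389) and GABARAP (0.33, adjusted p = 0.0489) then passed with SP2509, and HEXA in siPIR (-0.36, adjusted p = 0.0549) and ATG3 in siPIR against SP2509 (0.16, adjusted p = 0.185) did not.

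Directions turned in these cases, and except where the alternative's own construction shows it the cause was not tested. With the GC-length offset in siPIR the values were ATG9A 0.25, WIPI2 0.04, ATG3 -0.38, ATG4B 0.85, ATG7 0.33, SQSTM1 1.07 (1.06 with the replicate block), TFE3 0.70, LAMP2 -0.38, CTSA 0.75, CTSB 0.02, CTSL 0.75 and CTSZ 0.23. In siPIR against SP2509 they were ATG3 -1.13, ATG4A -0.85, ATG4B 0.82, ATG5 -0.68, ATG7 0.07, NBR1 -0.31, LAMP2 -0.31, CTSA 1.56, CTSB 0.02 and CTSL 0.09. With SP2509 ATG4B was 0.03 (0.04 with the block), and all other values were the same to 2 decimals with the replicate block. Totals alone gave ATG9A -0.04, WIPI2 -0.24, ATG7 -0.18, GABARAP -0.06, LAMP1 -0.28, CTSZ -0.29, HEXA -0.32 and NPC2 -0.32 with SP2509, and BECN1 -0.12, GABARAPL1 -0.15, OPTN -0.08, NPC1 -0.43 and GLA -0.57 in siPIR. They gave ATG4A -0.14 and NBR1 -0.06 in siPIR against SP2509. Upper quartile scaling gave WIPI2 -0.09, ATG7 -0.03, LAMP1 -0.12, CTSZ -0.13, HEXA -0.16 and NPC2 -0.16 with SP2509 and GLA -0.13 in siPIR. Without a filter on low counts GLA in siPIR was -0.03 and ATG4A in siPIR against SP2509 was -0.00. Leaving out 1 library at a time gave -0.01 to 0.18 for NPC2 and -0.16 to 0.03 for LAMP2 with SP2509 (0.00 without SP2509 replicate 2), and -0.01 to 0.17 for ATG4A in siPIR against SP2509.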

Other observations

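The list of other autophagy receptors, with its kinases, held large differences in siPIR that the report does not describe. The genes named here were chosen after their values were seen. BNIP3L (NIX), a receptor for mitochondria, was 3.53 higher on the log2 scale than in untreated (1.95 with the GC-length offset), with 25988 and 22321 counts in siPIR. BNIP3, its paralog, was 3.10 higher (3.96 with the offset), at 65.0 ± 3.24 CPM (SD, n = 2) in untreated and 558 ± 40.3 in siPIR. In SP2509 neither passed as fitted (-0.18 and -0.20, edgeR adjusted p = 0.154 and 0.104). PINK1, the kinase that marks damaged mitochondria for removal, had a log2 fold change of -2.90 in siPIR (-1.79 with the offset), with 143 and 197 counts. ATP6V0C, a membrane subunit of the proton pump, had 0 and 1 counts in the siPIR libraries, both under the floor of 3 counts, and 196 and 204 in the SP2509 libraries.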
